A study of Mus musculus with 15 samples.

Results

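The 5 mouse cytochrome P450 gene clusters were described by the open and closed chromatin of hepatocytes, as mapped in 3 groups of samples. The clusters were taken as 5 fixed stretches of the mm9 genome, chosen by position for the Cyp2c, Cyp3a, Cyp2d, Cyp4a and Cyp2a/2b/2f genes. Together they span 4620 kb, which is 0.187% of autosomal length, and they hold 93 of the 50 kb bins used below. The assay, srHC-seq, sorts fixed and sheared chromatin by fragment length: closed chromatin resists sonication and stays in long pieces, while open chromatin breaks into short ones. The first group was isolated hepatocytes of Wt mice at 2 months (M2; 2 males and 3 females). The second was hepatocytes at postnatal day 14 (P14) of mice labelled Alb-Cre;Ezh1-/-;Ezh2f/f (2 males and 3 females). Here Cre is driven by the albumin promoter, which acts in hepatocytes, and removes the floxed Ezh2, while Ezh1 is absent from all cells. The third was hepatocytes of P14 Wt mice (3 males and 2 females). No label says whether the Wt mice carried Alb-Cre.

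Each group of 5 samples was represented by 1 deposited map, which divides the genome on a 2 kb grid into closed (het), open (euch) and intermediate (int) domains. All bases of the 5 clusters were in exactly 1 class in each map. The maps carry no read counts, so the depth behind a call is unknown. With 1 map a group there is no spread between animals to set a difference against, and no difference below has a test. The lists hold no expression values, so the label hepatocytes could not be checked against marker genes.

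Cytochromes P450 are haem enzymes of the endoplasmic reticulum that oxidise drugs, steroids, bile acids and fatty acids, and the liver is their main site. Many are encoded in tandem arrays of related genes that are turned on during liver maturation. Ezh1 and Ezh2 are the catalytic subunits of the Polycomb complex PRC2, which methylates lysine 27 of histone H3 at silent genes. Expression of many Cyp genes in the adult mouse liver differs between the sexes.

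By the RefSeq gene table of GRCm38.p6, the 5 arrays hold 53 protein-coding Cyp genes. The Cyp2c array holds 14, which in order are Cyp2c55, Cyp2c65, Cyp2c66, Cyp2c29, Cyp2c39, Cyp2c38, Cyp2c67, Cyp2c68, Cyp2c40, Cyp2c69, Cyp2c37, Cyp2c54, Cyp2c50 and Cyp2c70. They include enzymes of drugs and arachidonic acid, and Cyp2c70, which makes the muricholic acids of mouse bile. The Cyp3a array holds 8, ordered Cyp3a57, Cyp3a16, Cyp3a41b, Cyp3a41a, Cyp3a44, Cyp3a11, Cyp3a25 and Cyp3a59. Cyp3a11 is a main drug-metabolising enzyme of mouse liver and a target of the receptor PXR. The Cyp2d array holds 8, from Cyp2d22 to Cyp2d26, among them Cyp2d9, a steroid hydroxylase that is higher in males. The Cyp4a array holds 10 with its neighbours Cyp4x1 and Cyp4b1, and includes Cyp4a10 and Cyp4a14, fatty acid hydroxylases under the receptor PPAR alpha. The Cyp2a/2b/2f array holds 13, from Cyp2s1 to Cyp2t4, among them Cyp2b10, a target of the receptor CAR, and Cyp2a5, a coumarin hydroxylase. The maps are on mm9 and this gene table is not, so no gene was placed within a cluster. Whether each cluster spans the whole of its array, or also holds sequence beyond it, was not checked. Values of a cluster are therefore those of the fixed stretch, at its ends as elsewhere.

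Promoters of 1 gene from each array are shown as examples of what the clusters encode. They are the 250 bases before the transcription start in RefSeq on GRCm38.p6, written 5′ to 3′ on the strand of the gene. Capitals mark 3 short motifs found on either strand, none of which overlap here. These are AGGTCA, the hexamer bound by many nuclear receptors, CAAAGTC, the core of sites for the liver factor HNF4, and TATAAA, the TATA box sequence. Matches were taken at any place in the stretch, so a TATAAA match need not be a TATA box. Their positions on GRCm38.p6 cannot be set against the mm9 positions of the clusters.
Cyp2c29 (GRCm38.p6, chr19:39286835-39287084, plus strand): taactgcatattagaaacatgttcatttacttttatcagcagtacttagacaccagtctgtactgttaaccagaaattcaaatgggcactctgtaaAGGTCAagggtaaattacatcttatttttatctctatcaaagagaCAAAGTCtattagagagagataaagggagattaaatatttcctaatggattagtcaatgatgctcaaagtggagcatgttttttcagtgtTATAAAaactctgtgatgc
Cyp3a11 (GRCm38.p6, chr5:145879855-145880104, minus strand): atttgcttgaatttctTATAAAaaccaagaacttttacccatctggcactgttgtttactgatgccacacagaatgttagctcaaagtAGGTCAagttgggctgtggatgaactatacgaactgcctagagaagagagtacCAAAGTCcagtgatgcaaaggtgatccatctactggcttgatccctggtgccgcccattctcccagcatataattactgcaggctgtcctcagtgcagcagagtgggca
Cyp2d10 (GRCm38.p6, chr15:82407195-82407444, minus strand): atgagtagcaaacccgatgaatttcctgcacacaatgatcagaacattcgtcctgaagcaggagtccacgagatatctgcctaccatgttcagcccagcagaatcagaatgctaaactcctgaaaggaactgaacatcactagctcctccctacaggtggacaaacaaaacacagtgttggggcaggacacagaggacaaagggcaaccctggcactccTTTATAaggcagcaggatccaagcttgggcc
Cyp4a32 (GRCm38.p6, chr4:115600688-115600937, plus strand): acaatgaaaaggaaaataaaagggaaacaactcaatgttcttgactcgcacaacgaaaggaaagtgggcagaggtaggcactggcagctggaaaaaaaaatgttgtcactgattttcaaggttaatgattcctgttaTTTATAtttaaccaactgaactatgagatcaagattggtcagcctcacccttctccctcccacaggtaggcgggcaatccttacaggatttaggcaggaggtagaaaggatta
Cyp2b10 (GRCm38.p6, chr7:25897408-25897657, plus strand): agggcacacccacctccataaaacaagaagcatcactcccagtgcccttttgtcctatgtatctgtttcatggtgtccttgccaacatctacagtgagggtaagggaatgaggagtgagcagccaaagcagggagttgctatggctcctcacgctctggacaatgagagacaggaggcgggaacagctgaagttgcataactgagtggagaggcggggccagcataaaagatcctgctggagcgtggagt

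Cyp2c29 and Cyp3a11 each have all 3 motifs in this stretch, with CAAAGTC beginning 109 bases before the start in both. Cyp2d10 and Cyp4a32 have only TATAAA, on the opposite strand, and Cyp2b10 has none of the 3 motifs. Of the 53 genes, 42 had a promoter sequence in the table. CAAAGTC was in 10 of 13 Cyp2c promoters, 4 of 8 Cyp3a, 4 of 12 Cyp2a/2b/2f, 0 of 5 Cyp2d and 0 of 4 Cyp4a promoters. Over all 27025 genes of the table, 3.80% held it. AGGTCA was in 15 of the 42 Cyp promoters and in 13.8% of all promoters, and TATAAA was in 22 of the 42 and in 13.0% of all. Genes of 1 array arose by duplication and share sequence, so these are not independent matches, and a match is not a bound site.

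All 5 clusters had a larger euch share and a smaller het share in the 2-month map than in the P14 wild-type map, and the same held for the P14 knockout map. Euch covered 95.2% of Cyp2c at 2 months, 85.6% in the P14 knockout and 72.2% in the P14 wild type. In Cyp2a/2b/2f it covered 88.1% at 2 months, 83.5% in the knockout and 72.9% in the P14 wild type. In Cyp3a the euch share was 67.8% at 2 months, also 67.8% in the knockout and 60.4% in the P14 wild type. In Cyp2d it was 78.5%, 70.5% and 58.5% in the same order of maps. Cyp4a was the least open in each map, with 64.9% at 2 months, 57.2% in the knockout and 41.4% in the P14 wild type. The autosomes as a whole barely differed, with 43.0% at 2 months, 42.4% in the knockout and 42.7% in the P14 wild type. How the calls were scaled in each map is not given in the sources used here.

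**Figure D1:**
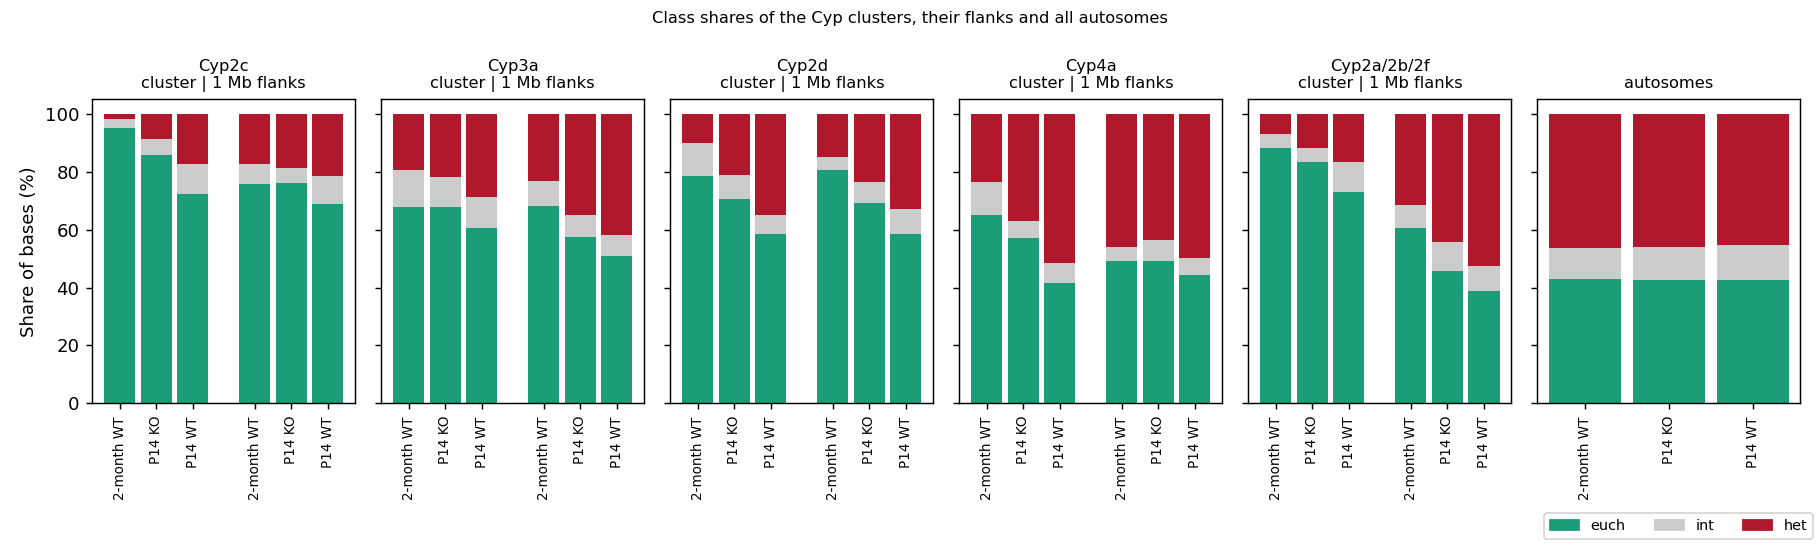
Stacked bars give the share of bases (%, vertical axis) called euch, int and het in each Cyp cluster and in its 1 Mb flanks, for the 2-month wild type (WT), the P14 knockout (KO) and the P14 wild type, with all autosomes at the right. The euch share is highest in Cyp2c at 2 months (95.2%) and lowest among the clusters in Cyp4a of the P14 wild type (41.4%).

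The het share moved the other way, by most in Cyp4a and Cyp2d. It covered 23.5% of Cyp4a at 2 months and 37.2% in the knockout, against 51.6% in the P14 wild type. In Cyp2d it covered 10.0% at 2 months and 21.0% in the knockout, against 35.0% in the P14 wild type. In Cyp2c 1.92% was het at 2 months and 8.64% in the knockout, against 17.3% in the P14 wild type. Cyp3a kept more het at 2 months than Cyp2c, Cyp2d or Cyp2a/2b/2f, at 19.3%, with 22.0% in the knockout and 28.7% in the P14 wild type.

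An openness score, the euch share minus the het share, runs from -1 (all closed) to 1 (all open). The score of Cyp4a was 0.414 at 2 months, against -0.102 at P14, a change of 0.516, the largest of the 5. Cyp2d had 0.685 against 0.235, a change of 0.45. Cyp2c had 0.933 against 0.549, a change of 0.384. Cyp2a/2b/2f had 0.812 against 0.563, a change of 0.249, and Cyp3a had 0.484 against 0.318, a change of 0.167. Leaving out bases close to domain edges of the P14 wild-type map lowered the change in 4 clusters, but not in Cyp4a. This also removes short domains whole. The median het domain of that map, measured inside the cluster, was 8 kb in Cyp2c and 10 kb in Cyp2a/2b/2f. It was 16 kb in Cyp2d, 18 kb in Cyp3a and 22 kb in Cyp4a. Edges and short domains therefore cannot be told apart here. With the bases that lie up to 5 kb from any domain edge of the P14 wild-type map left out, the changes were 0.126 for Cyp2c, 0.0575 for Cyp3a, 0.252 for Cyp2d, 0.0862 for Cyp2a/2b/2f and 0.599 for Cyp4a.

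In the P14 knockout the changes from the P14 wild type were smaller than those with age in every cluster, except in Cyp3a when bases near edges were left out. The score of Cyp4a was 0.20 in the knockout and -0.102 in the wild type, a change of 0.302. Cyp2d had 0.495 in the knockout and 0.235 in the wild type, a change of 0.26. Cyp2c had 0.77 in the knockout and 0.549 in the wild type, a change of 0.221. Cyp2a/2b/2f changed by 0.152 and Cyp3a by 0.14. With bases near the P14 wild-type edges left out as before, the knockout change was 0.0714 in Cyp2c, 0.0678 in Cyp3a, 0.214 in Cyp2d, 0.275 in Cyp4a and 0.0195 in Cyp2a/2b/2f. The 0.0678 of Cyp3a then exceeded its 0.0575 with age. Both comparisons use the same P14 wild-type map, so an error of that map enters both. The share of females was higher in the 2-month and knockout groups than in the P14 wild type, and sex mix and group cannot be told apart in these maps.

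**Figure D2:**
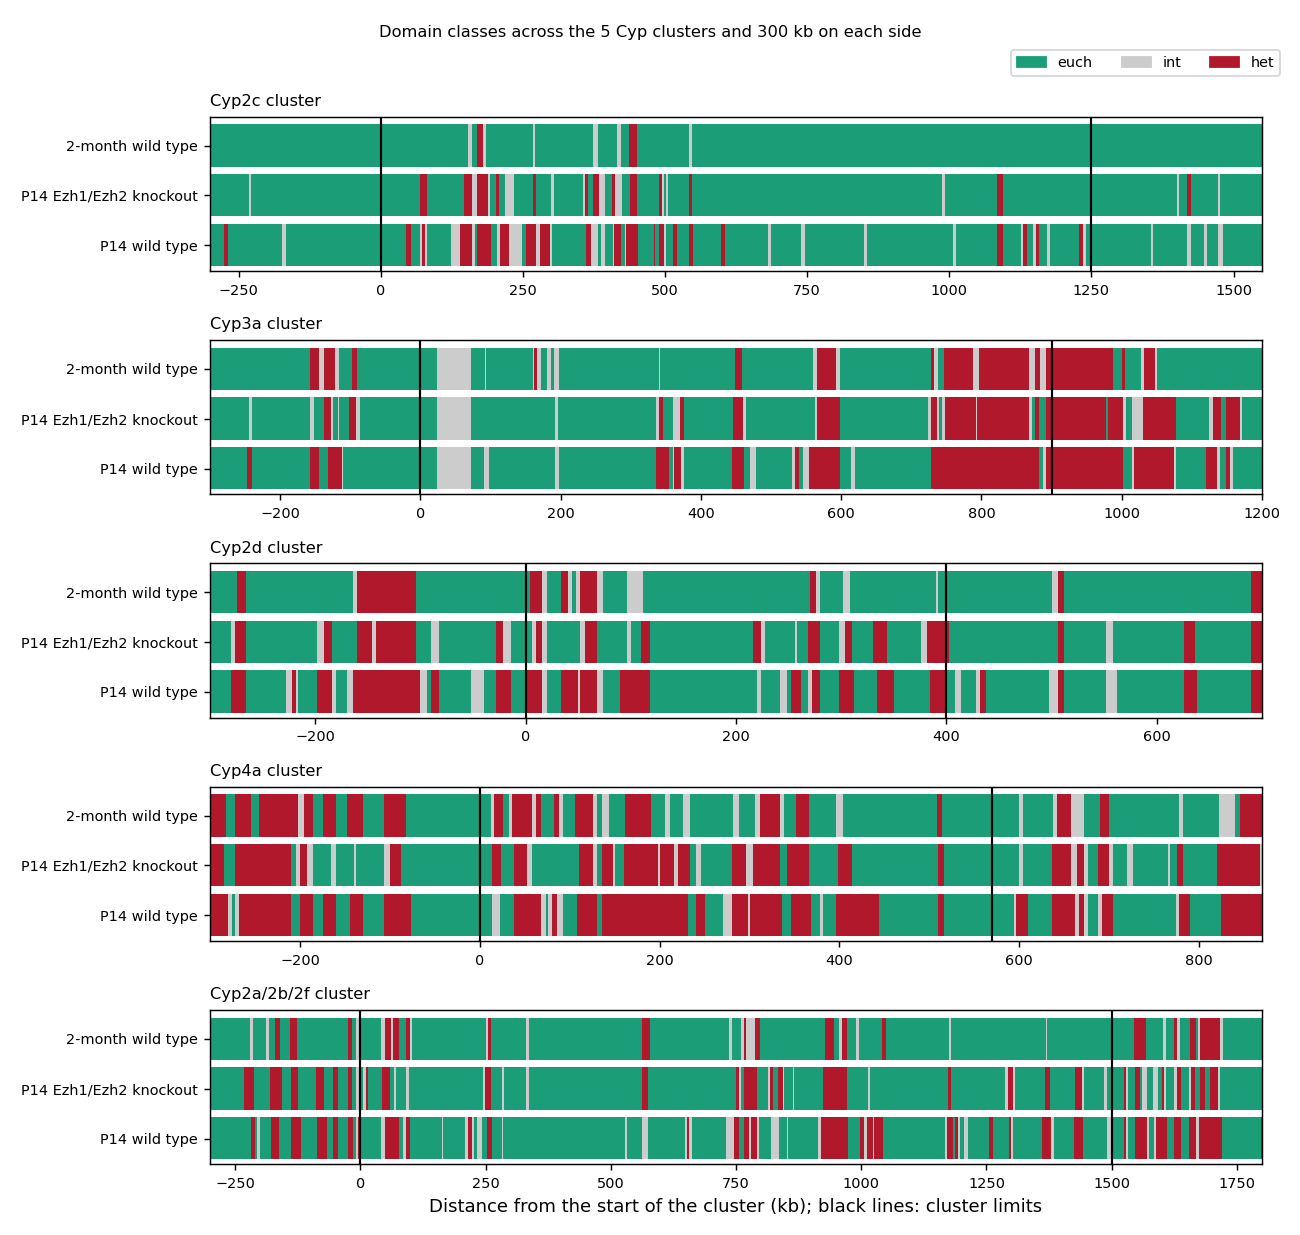
Coloured blocks are the domains of each map across the 5 Cyp clusters and 300 kb on each side, with the 2-month wild type on top, the P14 knockout in the middle and the P14 wild type at the bottom of each panel. The horizontal axis is the distance from the start of the cluster (kb), and black lines are its limits. Cyp2c shows 2 het domains at 2 months and 12 in the knockout, against 19 in the P14 wild type.

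Both the clusters and the autosomes as a whole were cut into the fewest domains at 2 months and the most in the P14 wild type. The domain tracks show this for the clusters. The 5 clusters held 138 domains of any class at 2 months, 174 in the knockout and 215 in the P14 wild type. That is 29.9, 37.7 and 46.5 domains per Mb, against 34.5, 45.1 and 49.1 per Mb over all autosomes in the same order of maps. Het domains numbered 33 at 2 months, 54 in the knockout and 64 in the P14 wild type.

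Cyp2c (chr19:39050001-40300000) was nearly all open at 2 months. It held 2 het domains there, the longer 14 kb (chr19:39486001-39500000). Of its 25 bins of 50 kb, 20 were wholly euch at 2 months, 13 in the knockout and 4 in the P14 wild type. One euch domain of 1024 kb (chr19:39598001-40622000) covered 702 kb of the cluster at 2 months. In the knockout the longest euch domain began at the same position and ran for 440 kb (chr19:39598001-40038000). In the P14 wild type the longest inside the cluster was 150 kb. The largest change was in the bin chr19:39300001-39350000, which scored 0.92 at 2 months and 0.76 in the knockout, against -0.60 in the P14 wild type. Within it lay the longest stretch that was het in the P14 wild type and euch at 2 months, 18 kb (chr19:39330001-39348000), and it was euch in the knockout throughout. The bin chr19:39200001-39250000 set the 2-month map apart from both P14 maps, with 0.36 at 2 months, -0.40 in the knockout and -0.48 in the P14 wild type. No base of Cyp2c moved towards het with age, against 316 kb that moved towards euch. In the knockout 226 kb moved towards euch and 52 kb towards het.

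Cyp2c adjoined open chromatin on both sides, but its right flank was less open as a whole than its left. The 150 kb on its left were wholly euch in all 3 maps, and so were the 2 bins next to it on its right. Its 1 Mb flanks together had a euch share of 75.7% at 2 months, 76.2% in the knockout and 69.0% in the P14 wild type. The left flank had 90.4%, 94.4% and 81.6% in the same order of maps, and the right flank 61.0%, 58.0% and 56.4%. The rest of chromosome 19 differed in the same direction, with a euch share of 59.3% at 2 months, 52.7% in the knockout and 48.6% in the P14 wild type.

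Cyp3a (chr5:146400001-147300000) was open over most of its length in all 3 maps and closed at its right end. The stretch chr5:146598001-146736000, 138 kb, was euch throughout in each map. At the right end the bin chr5:147200001-147250000 was wholly het in all 3 maps, and 72 kb (chr5:147196001-147268000) was het in each. One het domain of 154 kb in the P14 wild type (chr5:147128001-147282000) held most of that end. Whether that end lies within the Cyp3a gene array was not checked. The bin chr5:146750001-146800000 had the largest rise with age, with 1.00 at 2 months, 0.56 in the knockout and 0.32 in the P14 wild type. The bin chr5:146950001-147000000 rose most in the knockout, with -0.36 there against -0.84 in the wild type, and stood at -0.28 at 2 months. The largest fall of the cluster with age was at chr5:146550001-146600000, with 0.40 at 2 months against 0.88 at P14, while the knockout had 0.92. That fall of 0.48 was equalled by 1 bin of Cyp4a and passed by none. Near the left limit 48 kb (chr5:146424001-146472000) was int in all 3 maps. A constant int call can also mark sequence to which no read was assigned, and this was not tested.

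Cyp2d (chr15:82050001-82450000), the shortest cluster, differed between the knockout and the 2-month map by position. On the left the bin chr15:82050001-82100000 scored 0.08 at 2 months and 0.60 in the knockout, against -0.36 in the P14 wild type. On the right the bin chr15:82350001-82400000 scored 0.88 at 2 months and 0.12 in the knockout, against -0.12 in the P14 wild type. The next bin, chr15:82400001-82450000, had 0.96 at 2 months, 0.16 in the knockout and 0.36 in the P14 wild type. A core of 98 kb (chr15:82168001-82266000) was euch in all 3 maps. The longest stretch from het in the P14 wild type to euch at 2 months was 16 kb (chr15:82384001-82400000), of which 62.5% was closed in the knockout map. The euch domain around the core measured 158 kb at 2 months, 98 kb in the knockout and 102 kb in the P14 wild type.

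Cyp4a (chr4:114700001-115270000) had the largest het share of the 5 in each map and the largest change. Of its 11 bins of full length, 4 had a score below 0 at 2 months and 4 in the knockout, against 6 in the P14 wild type. The bin chr4:115100001-115150000 scored 0.92 at 2 months and 0.44 in the knockout, against -0.76 in the P14 wild type. Its change of 1.68 with age was the largest of the 92 bins. The longest stretch from het to euch with age lay there, 40 kb (chr4:115104001-115144000), and 75.0% of it was euch in the knockout. In the bin chr4:114900001-114950000 the 2-month map had 0.72, the knockout -0.40 and the P14 wild type -0.68. The bin chr4:114750001-114800000 did the opposite, with 0.04 at 2 months, 0.80 in the knockout and -0.28 in the P14 wild type. The longest het domain inside the cluster was 28 kb at 2 months and 38 kb in the knockout, against 96 kb in the P14 wild type (chr4:114836001-114932000). The first bin, chr4:114700001-114750000, was lower in both, with -0.12 at 2 months and 0.12 in the knockout, against 0.36 in the P14 wild type.

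Cyp2a/2b/2f (chr7:26500001-28000000) was largely open in all 3 maps, with 17 of 30 bins wholly euch at 2 months and 12 in the knockout, against 7 in the P14 wild type. The stretch chr7:26836001-27028000, 192 kb, was euch in all 3 maps. The bin chr7:27500001-27550000 had the largest rise in both comparisons, with 0.68 at 2 months and 0.92 in the knockout, against -0.60 in the P14 wild type. The bin chr7:26550001-26600000 differed in sign between the maps, with -0.36 at 2 months, 0.40 in the knockout and -0.56 in the P14 wild type. The bin chr7:27300001-27350000 had the largest fall in the knockout, 0.24 against 0.68 in the P14 wild type, and was wholly euch at 2 months. Towards the right end 18 kb (chr7:27924001-27942000) was het in the P14 wild type and euch at 2 months, and 77.8% of it was closed in the knockout map. The largest fall with age was at chr7:27050001-27100000, with 0.36 at 2 months against 0.76 at P14, and 0.52 in the knockout.

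Set against their 1 Mb flanks, Cyp4a and Cyp2c had the larger changes, Cyp2d a similar one, and Cyp3a and Cyp2a/2b/2f smaller ones. None of these differences has a replicate check. With age the score of Cyp4a changed by 0.516 and that of its flanks by 0.085, a difference of 0.431. For Cyp2c the changes were 0.384 in the cluster and 0.107 in the flanks, a difference of 0.277. Cyp2d changed by 0.45 and its flanks by 0.40, a difference of 0.05, or 0.182 against flanks of 2 Mb and -0.01 against the right flank alone. Cyp3a and Cyp2a/2b/2f changed less than their flanks, Cyp3a by 0.167 against 0.357 and Cyp2a/2b/2f by 0.249 against 0.428. Cyp2a/2b/2f started from 0.563 at P14 and its flanks from -0.139, and Cyp3a from 0.318 and its flanks from 0.092. Cyp2c, which changed more than its flanks, started from 0.549 and its flanks from 0.476. A score cannot pass 1, and whether the starting score bears on the size of a change was not tested. Against the rest of their chromosome Cyp3a and Cyp2a/2b/2f had the larger change, by 0.171 for Cyp3a and 0.195 for Cyp2a/2b/2f.

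In the knockout the difference between the change of a cluster and that of its flanks was 0.194 for Cyp4a, 0.121 for Cyp2c and 0.058 for Cyp2d. It was 0.006 for Cyp3a and -0.001 for Cyp2a/2b/2f, so both changed by nearly the same amount as their flanks. The sign of both depended on the flank chosen, with -0.022 for Cyp3a and 0.034 for Cyp2a/2b/2f against the left flank alone. Which side was used mattered for Cyp2c, with 0.0088 against the left flank alone and 0.233 against the right flank alone. The flanks of Cyp4a were themselves unlike, as the left flank scored -0.602 at 2 months, -0.404 in the knockout and -0.558 in the P14 wild type, and the right flank 0.664, 0.512 and 0.45 in the same order of maps.

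By 50 kb bins, every change of 0.5 or more from the P14 wild type was upward. Of 92 bins, the short last one of Cyp4a being left out, 27 had a score higher by 0.5 or more at 2 months than at P14, which is 29.3%, against 12.5% of the 49447 autosomal bins. None was lower by 0.5 or more, against 13.9% of autosomal bins. By cluster the bins higher by that much were 9 of 25 in Cyp2c, 3 of 18 in Cyp3a, 3 of 8 in Cyp2d, 5 of 11 in Cyp4a and 7 of 30 in Cyp2a/2b/2f. Of any size, 68 bins were higher, against 39.6% of autosomal bins, 5 were lower, against 36.2%, and 19 were equal. The median change was 0.24 over the 92 bins and 0 over the autosomal bins. Bins within a cluster adjoin each other and are not independent.

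In the knockout 11 of the 92 bins, 12.0%, were higher than in the P14 wild type by 0.5 or more, against 7.18% of autosomal bins. None was lower by that much, against 8.53%. The 11 were 3 in Cyp2c, 2 in Cyp2d, 2 in Cyp4a and 4 in Cyp2a/2b/2f, with 0 in Cyp3a. With the grid moved by 25 kb, 18 bins passed. The last bin of each cluster is then shorter than 50 kb, and no autosomal share was computed on that grid. On the main grid 58 bins were higher by any amount, against 37.7% of autosomal bins. There 13 were lower, against 37.9%, and the median change was 0.08.

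**Figure D3:**
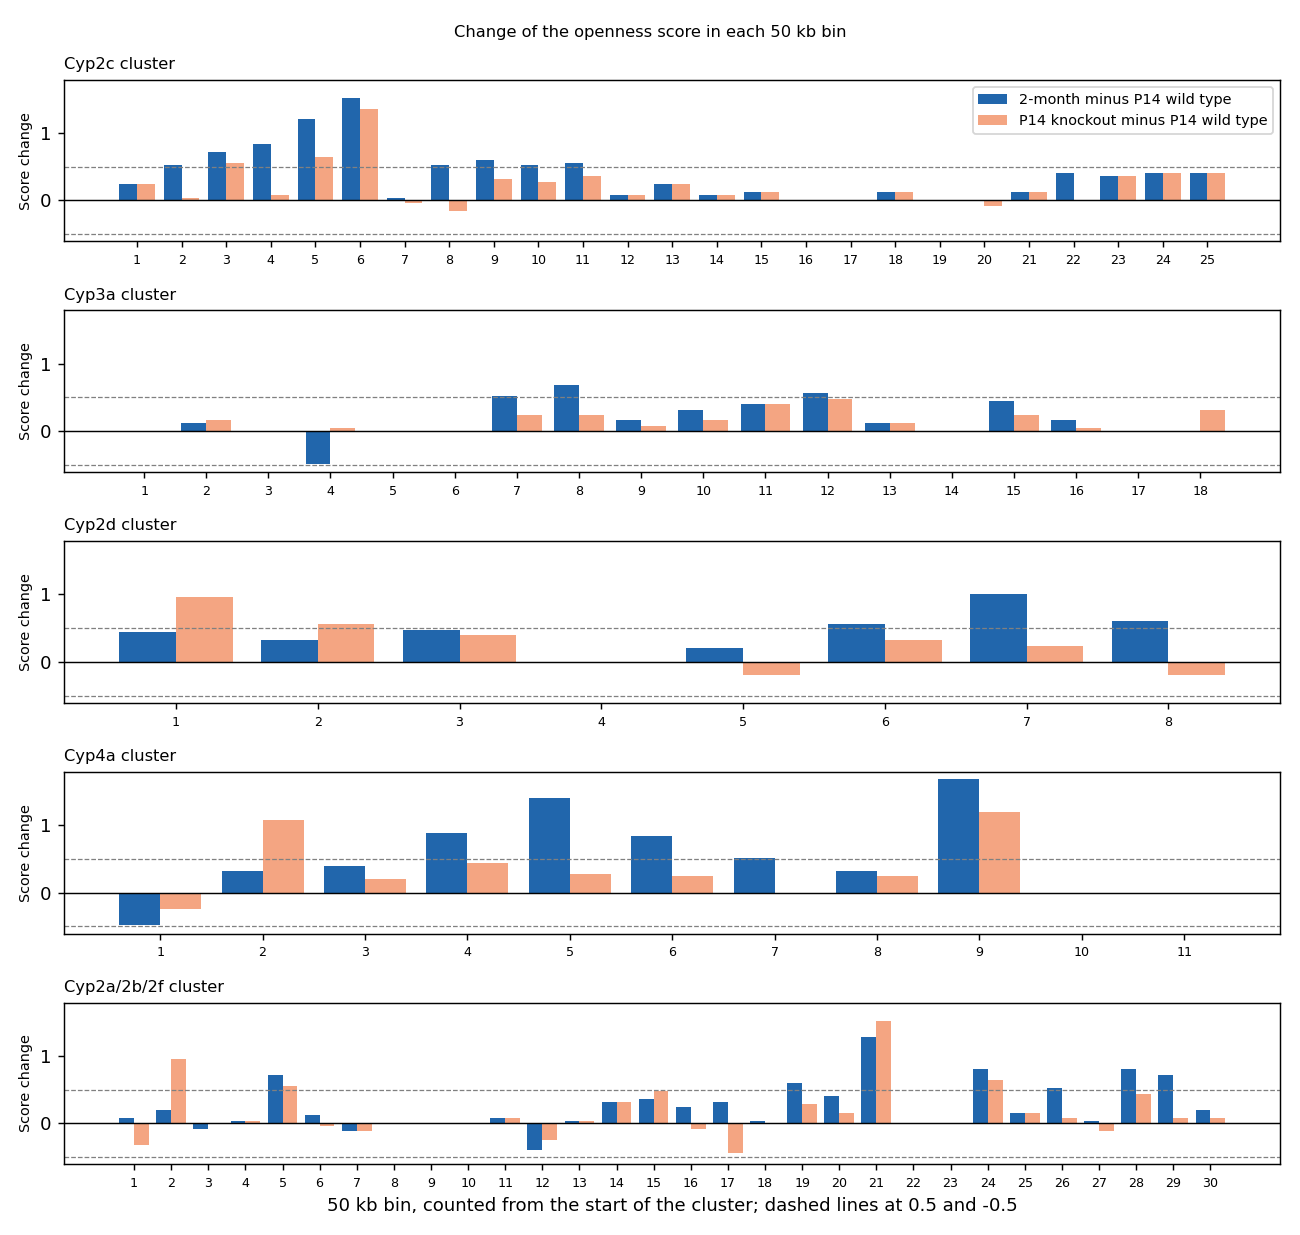
Bars give the change of the openness score in each 50 kb bin (vertical axis), for the 2-month map (blue) and the P14 knockout map (orange), each minus the P14 wild type. Bins are counted from the start of each cluster, dashed lines mark 0.5 and -0.5, and no bin lies below -0.5. The tallest bar, 1.68, is bin 9 of Cyp4a.

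Wholly euch bins numbered 47 of 92 at 2 months, 33 in the knockout and 17 in the P14 wild type, against 20.1%, 13.9% and 12.1% of autosomal bins. Bins with a score below 0 numbered 10 at 2 months, 11 in the knockout and 22 in the P14 wild type, against 50.4%, 50.6% and 50.3% of autosomal bins. Of the 22 cluster bins with a P14 wild-type score below 0, 12 were higher by 0.5 or more at 2 months and 8 in the knockout. Among the 24861 autosomal bins below 0 the same was true of 15.9% at 2 months and 10.2% in the knockout. The median change of the 22 bins was 0.54 at 2 months and 0.32 in the knockout, and 0 for the autosomal bins in both comparisons. Of the 22, 3 were wholly het in the P14 wild type, and wholly het autosomal bins were not counted. Another 22 cluster bins scored from 0 to under 0.5 in the P14 wild type. Of these, 15 were higher by 0.5 or more at 2 months and 3 in the knockout. Among the 10456 such autosomal bins the same was true of 21.4% and 9.68%. These bins are sorted by the P14 wild-type map that both changes use, in the clusters and on the autosomes alike.

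Counted by bases, 1158 kb of the 5 clusters were het in the P14 wild type, and 48.0% of them were euch at 2 months and 31.8% in the knockout. The flanks had 28.9% at 2 months and 16.7% for the knockout, and over all autosomes 14.2% and 11.0%. The share was largest in Cyp2c, where 75.9% of het bases were euch at 2 months and 50.9% in the knockout, against 30.4% and 28.0% in its flanks. In Cyp2a/2b/2f it was 56.8% at 2 months and 41.6% in the knockout, and its flanks had 31.3% and 13.7%. Cyp4a had 43.5% and 23.1%, against 9.44% and 12.7% in its flanks. Cyp2d had 48.6% at 2 months, close to the 47.0% of its flanks, and 38.6% in the knockout, against 17.4% in its flanks. Cyp3a had 20.9% at 2 months and 12.4% in the knockout, below its flanks at 34.0% and 19.1%.

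**Figure D4:**
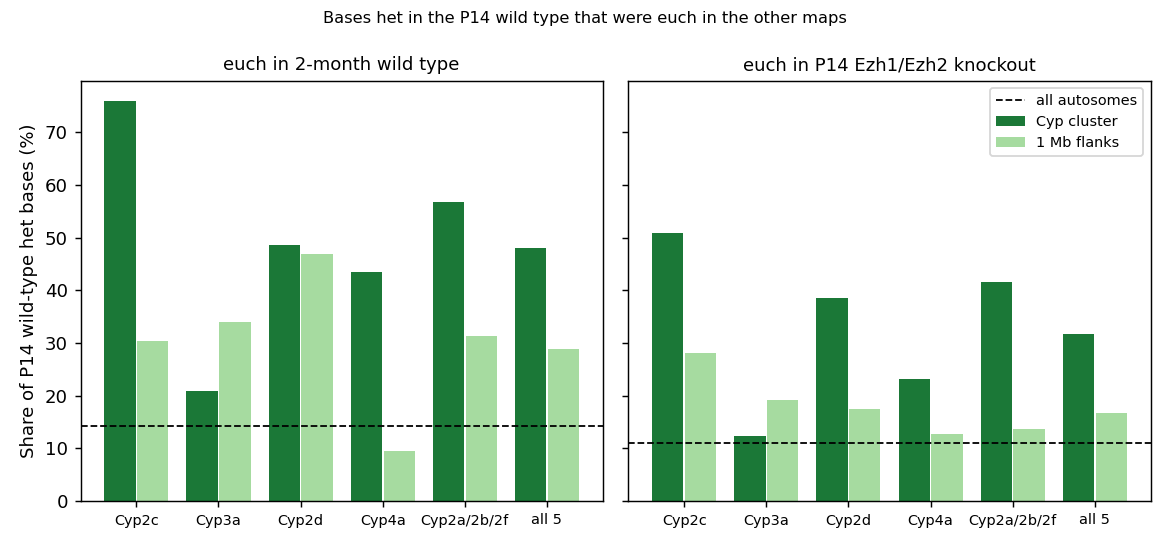
Bars give the share (%, vertical axis) of bases het in the P14 wild type that were euch at 2 months (left panel) or in the P14 knockout (right panel), in each Cyp cluster and its 1 Mb flanks and in all 5 together, and the dashed line is the share over all autosomes. Cyp2c reaches 75.9% and 50.9%, and only Cyp3a lies below its flanks in both panels.

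Few bases moved from euch to het. Of the bases euch in the P14 wild type, 0.930% of those in the clusters were het at 2 months, 28 kb in all, against 3.10% in the flanks and 16.1% over the autosomes. In the knockout 1.53% were het, 46 kb in all, against 4.28% in the flanks and 12.8% over the autosomes. In Cyp2c and Cyp2d every base that was euch at P14 was euch at 2 months.

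The knockout map had a cluster score between those of the other maps in all 5 clusters. The 1 Mb flanks, counted as 1 region, also had a knockout score between the others, at 0.265. They scored 0.401 at 2 months and 0.126 in the P14 wild type. Only the flanks of Cyp4a differed, with 0.054 in the knockout, 0.031 at 2 months and -0.054 in the P14 wild type. The knockout score minus the 2-month score was -0.136 in the flanks of all 5 clusters and -0.124 in the clusters. Of the 68 bins higher at 2 months than in the P14 wild type, the knockout score lay strictly between the other 2 in 32, or 47.1%, against 37.7% of the 19564 such autosomal bins. This comparison of the knockout with the 2-month map was added after the data had been seen. The knockout was lower than the 2-month map by 0.5 or more in 10 of the 92 bins, a share near the 8.73% of autosomal bins. It was higher by that much in 4 of the 92 bins, or 4.35%, against 8.77%. Those 4, all named above, were 1 each in Cyp3a, Cyp2d, Cyp4a and Cyp2a/2b/2f. Of any size, 45 bins were lower in the knockout, against 36.4% of autosomal bins, 12 were higher, against 35.1%, and 35 were equal. The class was the same in both maps for 83.1% of cluster bases and 76.8% of autosomal bases. It was the same for 88.9% of bases in Cyp3a and 87.7% in Cyp2c, and for 69.1% in Cyp4a and 71.0% in Cyp2d.

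Of the bases het in the P14 wild type, 298 kb were euch in both other maps, 258 kb were euch at 2 months only and 70 kb in the knockout only. These are 25.7%, 22.3% and 6.04% of the het bases of the clusters, against 5.49%, 8.69% and 5.54% of those of the autosomes. Most of the 70 kb lay in Cyp2d (24 kb), Cyp4a (20 kb) and Cyp2a/2b/2f (18 kb), against 2 kb in Cyp2c. In Cyp4a 80 kb became euch at 2 months only, more than the 48 kb that were euch in both. In Cyp2c the order was the other way, with 56 kb at 2 months only and 108 kb in both.

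Most of the chromatin closed in all 3 maps lay in Cyp3a and Cyp4a. Of 360 kb that were het in each map, 166 kb lay in Cyp3a and 98 kb in Cyp4a, with 52 kb in Cyp2a/2b/2f, 22 kb in Cyp2c and 22 kb in Cyp2d. As a share of the clusters, 7.79% was het in all 3 maps, against 31.5% of the autosomes, and 60.7% was euch in all 3, against 30.2%. By cluster the share euch in all 3 maps was 69.6% in Cyp2c, 66.5% in Cyp2a/2b/2f, 56.9% in Cyp3a, 53.5% in Cyp2d and 37.2% in Cyp4a. Tandem Cyp genes hold near-identical copies, such as Cyp3a41a and Cyp3a41b, or Cyp4a12a and Cyp4a12b. How reads that match more than 1 copy were treated is not given in the sources used here, and its effect on these calls was not tested.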

How the data were processed

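Per the labels' protocols, perfused hepatocytes were fixed, sonicated and size-selected with beads. STAR 2.4.2a, bcl2fastq 2.19.0.316 and bedtools are named in the submitters' processing notes, with mm9 as the build. The program that called domains, and its thresholds, are not given in the sources used here. The authors deposited 9 lists of intervals, 3 classes by 3 groups, with a score column of 0 throughout. Each was read as a pool of its group, as the sample descriptions imply, where 4 of 5 samples at 2 months name the euch list. Lists were read at 1 kb with Python 3.11.15, NumPy 2.4.6 and Matplotlib 3.10.9, with 1-based positions, and edges in the clusters lay on a 2 kb grid. Flanks were 1 Mb on each side. Bins of 50 kb were counted from the chromosome start, and those with under 50% of that length were left out, which removed the last 20 kb of Cyp4a. Named bins are the largest rise and fall of each cluster per comparison, and named stretches the longest from het to euch or euch to het, and the longest constant ones; others were chosen after their values were seen. Scores and changes were tested on 3 simulated maps. Members and lists were chosen with earlier results of these data known. Sequences and gene order are from RefSeq tables of GRCm38.p6. Alternatives were other limits, flanks, thresholds and grids, leaving out bases near edges, and giving domains under 5 kb the class of the longer neighbour. Neither p-values nor intervals were computed.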

Additional observations from a re-analysis of the deposited data

How the results depend on the processing

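No paired analysis was possible because each list pools the samples of its group, and for the same reason no sample could be left out. The depth behind the calls is unknown, and domain classes carry no size below or above their thresholds. Leaving out runs of 100 kb or more that are int in all 3 maps gave no value, because the clusters hold none. Of 40 recomputed cluster changes 33 moved by 0.1 or less, and none changed sign. With bases up to 5 kb from P14 wild-type domain edges left out, the change with age was 0.126 in Cyp2c, 0.0575 in Cyp3a, 0.252 in Cyp2d and 0.0862 in Cyp2a/2b/2f, and the knockout change was 0.0714 in Cyp2c, 0.0678 in Cyp3a and 0.0195 in Cyp2a/2b/2f. With domains under 5 kb given the class of the longer neighbour, the knockout change was larger in Cyp2d (0.35) than in Cyp4a (0.288). With limits 50 kb further in, Cyp4a changed by 0.677 with age. Of 50 differences between cluster and flanks 8 changed sign. With age these were 0.171 in Cyp3a and 0.195 in Cyp2a/2b/2f against the rest of the chromosome and -0.01 in Cyp2d against the right flank. In the knockout they were -0.02 against 2 Mb flanks and -0.022 against the left flank in Cyp3a, and 0.008 against 500 kb flanks, 0.034 against the left flank and 0.144 against the rest of the chromosome in Cyp2a/2b/2f. Against the rest of the chromosome the age difference was 0.169 in Cyp2c and 0.421 in Cyp2d, and the knockout difference 0.141 in Cyp3a, 0.254 in Cyp2d and 0.312 in Cyp4a. Against 2 Mb flanks that of Cyp2d with age was 0.182. For Cyp4a with age it was 0.560 against the left flank and 0.302 against the right, and for Cyp2c in the knockout 0.0088 and 0.233. At a threshold of 0.3, 44 bins were higher and 3 lower with age, and 25 higher and 2 lower in the knockout. At 0.8, 11 were higher with age and 6 in the knockout, and on the grid moved by 25 kb, 18 were higher in the knockout. No autosomal share was computed at these 2 thresholds or on that grid, so these counts have no background. The cause of these shifts was not tested.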
